A study of Homo sapiens with 38 samples.

Results

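RNA was compared in RKO, an established line of human colorectal cancer cells, between treatment with the parent LSD1 inhibitor NCD38 and treatment with its polyamide conjugates, NCD38-b2P4 and NCD38-b2PIPP. These 3 compounds account for 6 of the 38 samples of the series, with 1 RNA library per compound at day 30 and at day 4. Cells received 2 μM of compound, and the study's methods give 0.1% DMSO as the vehicle with medium refreshed every 5 days during the 30-day treatment. DMSO-treated cells gave 2 further RNA libraries, 1 on each day, and they enter the fit and stand beside the values as controls. RKO is a single tumour line, and each condition is 1 library, so a difference within a day has no replicate check. The question asked of the data was which genes both conjugates placed away from the parent compound at the same dose and time.

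LSD1, the product of KDM1A, removes methyl groups from lysine 4 of histone H3 as part of the CoREST corepressor complex, and trans-phenylcyclopropylamine compounds such as NCD38 inactivate it. In the conjugates the inhibitor is joined through a β-alanine linker to a short pyrrole-imidazole polyamide, a chain that lies in the minor groove of DNA and reads its letters. The P4 chain holds pyrrole units and reads A/T pairs, whereas the PIPP chain has an imidazole in place of 1 pyrrole and reads a CG step flanked by A/T pairs. The parent compound carries no such chain.

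The level of each gene was given as FPKM, fragments per kilobase of transcript scaled to the mapped fragments of the library. Each comparison is the log2 ratio of FPKM + 1, conjugate over NCD38 of the same day, centred on the median of the expressed genes, so a ratio of 1 is a 2-fold difference and a ratio of 0 is the typical gene. A pseudocount of 1 makes the ratio understate differences of weakly expressed genes. Of 25504 uniquely named entries, 10865 counted as expressed, with FPKM averaging 1 or more across the 8 libraries. Among these, 9836 had an annotated transcript of at least 500 nt and are called long entries. The rest were small RNAs, short transcripts or names without a matched transcript. The FPKM at which genes with single fragments pile up placed the libraries at about 12600000 to 23100000 mapped fragments, and the 95% counting half-widths given below rest on that estimate and cover counting error only. KRT18 was expressed at 76.2 to 121 FPKM and the summed markers of fibroblasts, leukocytes, endothelial cells and hepatocytes did not exceed 0.117 FPKM in any library.

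Promoter sequences are shown for 3 genes described on day 30, since the polyamide chains read DNA letters. MMP10 was picked after its values were seen, and it passed the filter on expression through its day 30 values, since on day 4 it was at 0.204 to 0.506 FPKM. CDC20 lay just outside 2-fold on day 30. They run from 250 bases before to 50 bases after the RefSeq start site on GRCh38.p14, 5′ to 3′ along the gene, whereas the expression table was built on hg19. Capitals mark a run of at least 6 letters A or T, and a CG with 2 letters A or T on each side. The windows are MMP10 at chr11:102780579-102780878 on the minus strand, PLK1 at chr16:23678639-23678938 on the plus strand and CDC20 at chr1:43358731-43359030 on the plus strand.
MMP10: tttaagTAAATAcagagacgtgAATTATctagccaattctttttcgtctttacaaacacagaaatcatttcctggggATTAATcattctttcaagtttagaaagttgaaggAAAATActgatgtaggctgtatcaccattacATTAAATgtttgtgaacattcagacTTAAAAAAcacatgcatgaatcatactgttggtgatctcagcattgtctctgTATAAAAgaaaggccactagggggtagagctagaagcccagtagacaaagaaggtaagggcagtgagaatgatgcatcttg
PLK1: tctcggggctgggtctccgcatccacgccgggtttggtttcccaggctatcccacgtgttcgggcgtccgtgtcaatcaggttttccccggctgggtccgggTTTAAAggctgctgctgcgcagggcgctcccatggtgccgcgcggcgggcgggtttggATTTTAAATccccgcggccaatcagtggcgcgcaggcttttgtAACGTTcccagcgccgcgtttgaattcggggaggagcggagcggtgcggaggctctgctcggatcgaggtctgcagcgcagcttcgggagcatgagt
CDC20: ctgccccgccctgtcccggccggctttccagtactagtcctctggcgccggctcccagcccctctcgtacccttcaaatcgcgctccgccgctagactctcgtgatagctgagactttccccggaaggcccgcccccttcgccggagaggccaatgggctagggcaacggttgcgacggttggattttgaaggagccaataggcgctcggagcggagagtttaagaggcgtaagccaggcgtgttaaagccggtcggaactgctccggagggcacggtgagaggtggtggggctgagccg
MMP10, which on day 30 was lowest with NCD38, has 7 runs of at least 6 letters A or T in this window, no A/T-flanked CG and a GC content of 36.3%. PLK1, which on day 30 was highest with NCD38, has 2 such runs and 1 A/T-flanked CG at a GC content of 64.7%. CDC20 has neither. Over all 22114 RefSeq windows of this length, 63.1% held a run of 6 letters A or T and 16.3% an A/T-flanked CG, searched on the letters that read alike on both strands. A window was matched for 5141 of the 10865 expressed entries, fewer than 80%, so a comparison of these shares between groups of genes is void and is not given. Runs of A or T stood in windows of genes on both sides of NCD38. Of the other genes described below, SIAE and MORC4, which were higher with the conjugates, had 2 runs each and LCE1F 1, while DTL, IVNS1ABP and OGT, also higher, had 0. SERTAD1 and FLNA, lower with the conjugates on day 30, had 2 runs each and UBE2S and DAPK3 1 each, while TGFB1 and P2RY11, also lower, had 0. DAPK3 also had 1 A/T-flanked CG. These are windows of single named genes, and no difference between higher and lower genes is read from them.

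On day 30 the NCD38 library stood apart from both conjugate libraries in a small set of genes. Higher than in NCD38 by at least 2-fold were 87 entries with NCD38-b2P4 (0.801% of the expressed entries) and 141 with NCD38-b2PIPP (1.3%). Lower by as much were 112 (1.03%) and 83 (0.764%), respectively. Both conjugates were past 2-fold in the same direction for 60 entries that were higher (0.552%) and 45 that were lower (0.414%). Only 29 and 8 of these were long entries, and 17 of the 60 and 32 of the 45 were small RNAs such as snoRNAs and microRNA hairpins. The ratios of both conjugates share the NCD38 library of their day, so a reading particular to that library enters both counts.

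On day 4 the counts were larger. NCD38-b2P4 was past 2-fold for 782 entries that were higher (7.2%) and 207 that were lower (1.91%), and NCD38-b2PIPP for 1623 (14.9%) and 1098 (10.1%). Both conjugates shared 729 of the higher entries (6.71%) and 172 of the lower ones (1.58%), of which 689 and 107 were long. Before centring, the median ratio was 0.30 for NCD38-b2P4 and 0.45 for NCD38-b2PIPP on day 4, against 0.01 and -0.07 on day 30. Without centring the day 4 counts were 1857 higher and 67 lower for NCD38-b2P4 and 3335 and 119 for NCD38-b2PIPP, so directions on day 4 are relative to the typical gene. Across both days, 1 entry was higher in all 4 comparisons (0.0092%) and 5 were lower (0.046%), and none of the 6 was a long entry. Just inside 2-fold on day 30 stood C11orf1 at a ratio of 1.002, and just outside it AIG1 at 0.99 and CDC20 at -0.995.

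The ratios of day 4 moved with the GC content of the transcript. Across 10205 genes, Spearman's rho between the ratio and transcript GC content was -0.66 for NCD38-b2P4 and -0.72 for NCD38-b2PIPP on day 4, against -0.17 and 0.14 on day 30. These are correlations across genes within libraries, and genes are not independent replicates. Among the 20% of genes that were poorest in GC, the day 4 median ratio was 0.41 for NCD38-b2P4 and 0.73 for NCD38-b2PIPP, and among the 20% that were richest it was -0.57 and -0.83. On day 30 these medians stayed between -0.07 and 0.06. After a running median along GC content was subtracted, the long entries shared by both conjugates on day 4 numbered 136 higher and 66 lower, and on day 30 they numbered 26 and 9. The part of GC content in the day 4 differences was not tested beyond this subtraction, and each day 4 value below is given with its GC-subtracted value where both matter to the reading.

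**Figure D1:**
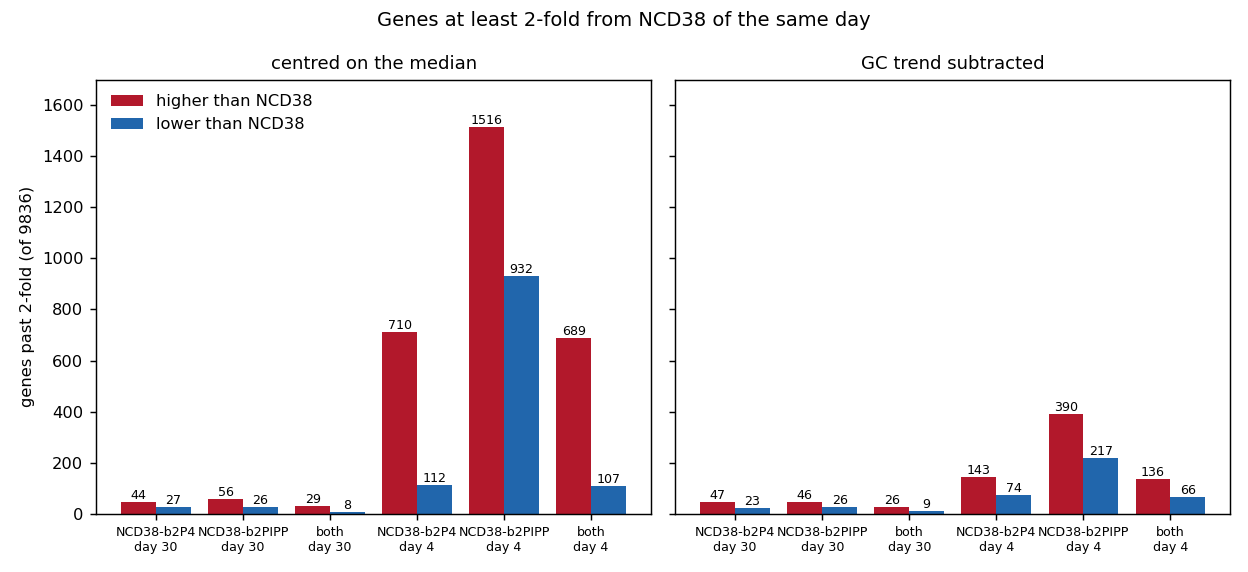
Number of long entries at least 2-fold from NCD38 of the same day (y axis, of 9836) for each conjugate and for both, higher in red and lower in blue, centred on the median (left) or with the GC trend subtracted (right). The day 30 bars stay between 8 and 56 in both panels, while the day 4 bars for both conjugates go from 689 and 107 to 136 and 66.

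Against DMSO of the same day, the 3 compounds differed in how many long entries lay past 2-fold. On day 30, NCD38 was past 2-fold from DMSO for 30 higher and 32 lower long entries, NCD38-b2P4 for 5 and 4, and NCD38-b2PIPP for 5 and 6. The conjugate libraries of day 30 thus stood nearer to DMSO than the NCD38 library did by this count, with no replicate to test it. On day 4 the counts were 30 and 90 for NCD38, 20 and 6 for NCD38-b2P4 and 568 and 7 for NCD38-b2PIPP, and with the GC trend subtracted they were 11 and 15, 11 and 9, and 53 and 39. The DMSO libraries of the 2 days differed by at least 2-fold for 2656 higher and 1808 lower entries on day 30 over day 4, so levels were not compared between days.

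Fitted over the 8 libraries with the day as a block, limma called few genes. For NCD38-b2P4 minus NCD38 it called 1 entry (0.0092% of 10865) and for NCD38-b2PIPP minus NCD38 it called 2 (0.0184%), with adjusted p-values over all genes and both pairs of compounds. For the mean of both conjugates minus NCD38 it called 0 entries (0%) at a smallest adjusted p of 0.188, and 1087 entries had an unadjusted p under 0.05, of which 281 were higher and 806 lower. The number of calls for this contrast changed with the single library left out, most without the NCD38 library of day 30. Each such fit leaves 1 treatment with a single library, which adds nothing to the measured spread, so no result is read from these calls. The 3 called entries were microRNA hairpins. MIR1909 was at 0 in both NCD38 libraries and both NCD38-b2PIPP libraries, but at 70.3 and 124 FPKM with NCD38-b2P4 on day 30 and day 4 (limma adjusted p = 0.0125). MIR659 was at 0 with NCD38 and with NCD38-b2P4, but at 36.5 and 84.9 FPKM with NCD38-b2PIPP (limma adjusted p = 0.0125). MIR196B was at 43.2 and 91.8 FPKM with NCD38 and at 0 with NCD38-b2PIPP (limma adjusted p = 0.0413). With DMSO on day 30 and day 4, MIR1909 was at 96.2 and 90.7 FPKM and MIR659 at 23.0 and 34.3 FPKM. MIR196B was at 0 with DMSO on both days. These are short hairpins, where FPKM divides few fragments by a small length, and an FPKM of 0 can be a failed estimate, so the levels are given as listed and no fold is read from them. No member of any gene list described below passed this test, and what follows gives values of single libraries. No source says that the libraries came from separate cultures, so these p-values measure only spread among the 8 libraries. With 1 library per treatment and day, and the days as blocks, that spread is how far treatment differences changed between the days. A gene that differs on 1 day only, or in opposite directions, therefore gets a wide interval.

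On day 30, 3 metalloproteinase genes that lie beside each other on chromosome 11 of hg19 were lowest in the NCD38 library and higher with DMSO and with both conjugates. MMP1, the interstitial collagenase (chr11:102660650-102668891), was at 22.7 FPKM with DMSO, 5.04 with NCD38, 30.2 with NCD38-b2P4 and 29.0 with NCD38-b2PIPP. Its ratio to NCD38 was 2.36 with a counting half-width of 0.21 for NCD38-b2P4 and 2.39 with a half-width of 0.20 for NCD38-b2PIPP, the largest shared difference among long entries on that day. MMP3, or stromelysin-1 (chr11:102706532-102714340), was at 3.46, 0.879, 4.67 and 9.62 FPKM in the same order. MMP10, or stromelysin-2 (chr11:102641233-102651359), was at 2.96, 0.247, 3.07 and 2.55 FPKM. For all 3, NCD38 was the lowest of the 4 libraries of day 30, and the conjugates lay on the same side of it as DMSO. MMP3 and MMP10 passed the filter on expression through their day 30 values. On day 4 MMP3 was at 0.098, 0.24, 0.51 and 0.40 FPKM and MMP10 at 0.20, 0.25, 0.26 and 0.51 FPKM, in the same order. DMSO was thus below NCD38 for both on day 4.

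The metalloproteinases were put together as a list after their values were seen. Of 23 genes, 7 were expressed, and the 4 others, MMP11, MMP14, MMP15 and MMP24, had ratios between -0.38 and 0.50 on day 30. On day 4 MMP1 was near its filter level, at 1.02 FPKM with NCD38, 2.31 with NCD38-b2P4 and 3.37 with NCD38-b2PIPP, and its ratios of 0.41 and 0.66 became -0.17 and -0.12 with the GC trend subtracted. The mean of both conjugates over both days was 1.39 above NCD38 for MMP1 (limma, SE 0.448, 95% interval 0.29 to 2.49, adjusted p = 0.468). MMP1 was picked by its day 30 ratios, which enter this interval, and the interval is not adjusted for that choice.

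Other long entries high in both conjugates on day 30 were of mixed roles. LCE1F, a late cornified envelope gene of the skin, was at 0.695 FPKM with NCD38, 5.61 with NCD38-b2P4 and 4.78 with NCD38-b2PIPP. C9orf103, now named IDNK and a putative gluconokinase, was at 2.15, 8.89 and 8.66 FPKM. B9D1, a component of the transition zone of the primary cilium, was at 6.14, 20.7 and 19.5 FPKM. With DMSO, LCE1F was at 2.94, C9orf103 at 8.31 and B9D1 at 14.7 FPKM, in each case above NCD38. KRT8, the keratin partner of KRT18 in simple epithelia, was at 15.4 FPKM with DMSO, 6.58 with NCD38, 19.0 with NCD38-b2P4 and 13.6 with NCD38-b2PIPP, whereas KRT18 differed little, at ratios of 0.23 and 0.19. These genes lay on the other side of NCD38 on day 4, at ratios of -0.41 and -0.50 for LCE1F, -0.51 and -0.56 for C9orf103, -0.95 and -1.17 for B9D1 and -0.70 and -1.08 for KRT8. After GC subtraction these ratios were 0.04 and 0.14 for LCE1F, -1.06 and -1.22 for C9orf103, -0.43 and -0.44 for B9D1 and -0.18 and -0.34 for KRT8.

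Metallothioneins, small cysteine-rich proteins that bind zinc and copper, gave lower values with NCD38 than with either conjugate on day 30. Of the 9 expressed members of the list, 7 were above 0 for both conjugates (77.8%, against 36.4% of all expressed entries). The median ratio was 0.854 for NCD38-b2P4 and 0.999 for NCD38-b2PIPP beside 0 for all genes. MT1X was at 660 FPKM with DMSO, 328 with NCD38, 748 with NCD38-b2P4 and 719 with NCD38-b2PIPP. MT2A was at 8468, 5935, 9294 and 8856 FPKM. The day 4 medians of the list were -0.653 and -1.14, and MT1X was at ratios of -0.61 and -1.20. The 7 are the metallothionein genes themselves, and the 2 members below 0 were MTF1, the zinc-sensing transcription factor that induces them, and SLC30A1, a zinc exporter. Metallothionein genes are near-identical copies, so how reads were split among them is uncertain.

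A few enzymes of amino acid and one-carbon metabolism had the same order on day 30. ASS1, the argininosuccinate synthase, was at 53.2 FPKM with DMSO, 22.1 with NCD38, 59.5 with NCD38-b2P4 and 50.7 with NCD38-b2PIPP. PCK2, the mitochondrial PEP carboxykinase, was at 43.1, 21.0, 40.7 and 52.5 FPKM. Asparagine synthetase, ASNS, was at 334, 190, 325 and 344 FPKM. Of the 31 expressed members of the ATF4 amino acid response list to which they belong, 15 were above 0 with both conjugates and 3 below on day 30 (48.4% and 9.68%, against 36.4% each of all expressed entries), and the list medians were 0.09 and 0.19. The day 4 ratios were -0.93 and -1.20 for ASS1, -0.66 and -1.04 for PCK2 and -0.43 and -0.41 for ASNS, below NCD38 in each case. The list as a whole was mixed on day 4, with 11 members above 0 with both conjugates and 15 below. These are 35.5% and 48.4%, against 46.0% each of all expressed entries on that day. Its day 4 medians were 0.01 and -0.25, and 0.28 and 0.09 with the GC trend subtracted.

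**Figure D2:**
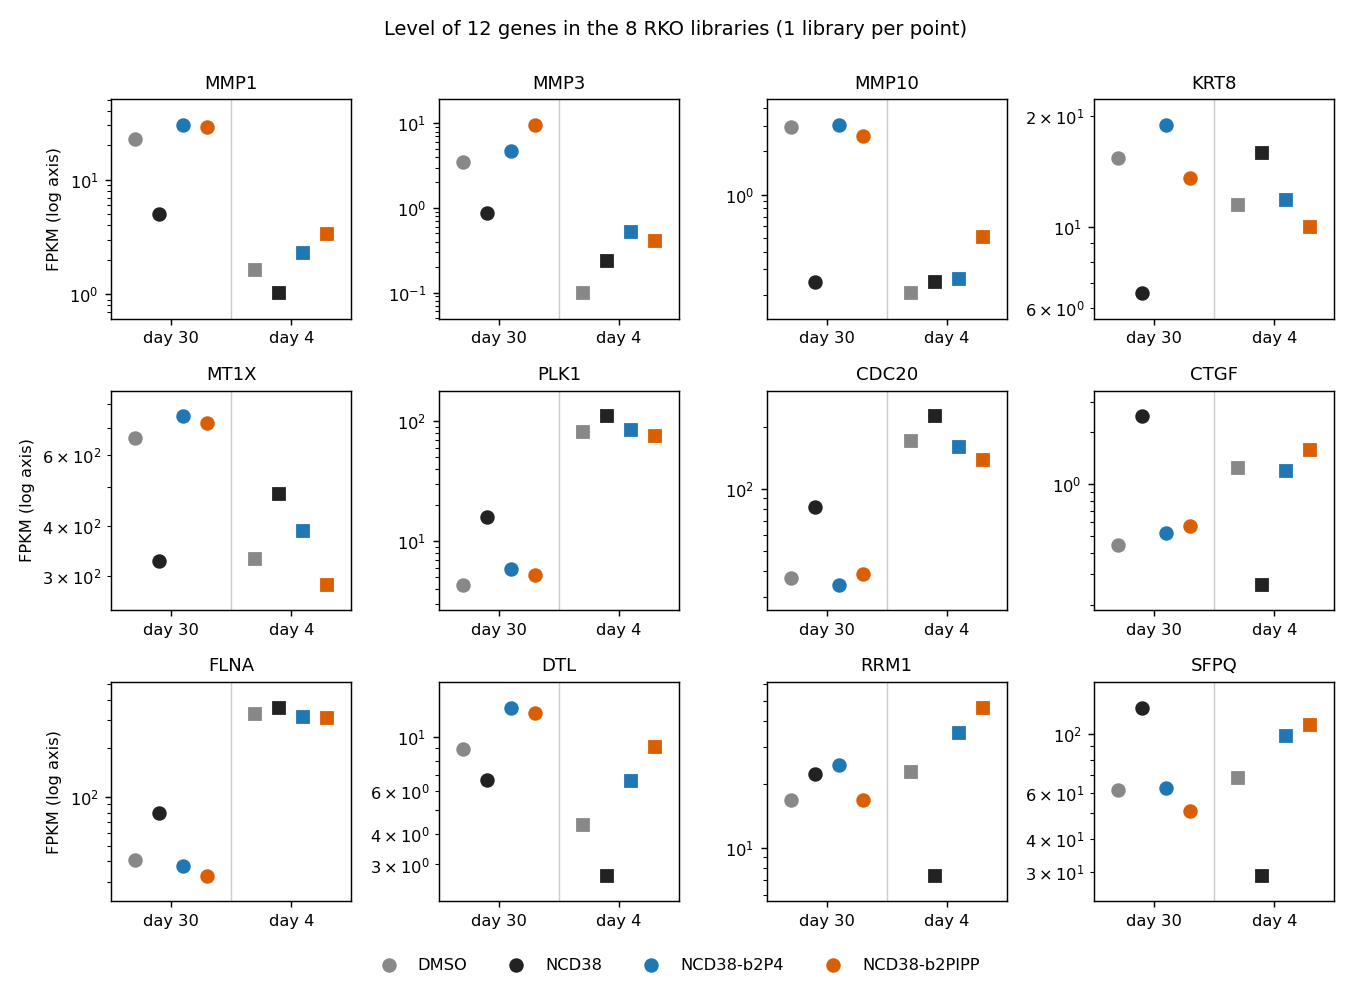
FPKM of 12 genes (y axes, log scale) in the 8 libraries, circles for day 30 and squares for day 4, grey for DMSO, black for NCD38, blue for NCD38-b2P4 and orange for NCD38-b2PIPP, 1 library per point and no error bars. On day 30 the black point stands apart from the other 3 for MMP1, MMP10, KRT8, MT1X, PLK1, CDC20, CTGF and SFPQ, while for RRM1 it lies among them.

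Genes of mitosis were lower with both conjugates than with NCD38 on day 30. Of the 43 expressed members of the G2/M list, 41 were below 0 with both conjugates and 1 above (95.3% below, against 36.4% of all expressed entries), and the median ratio was -0.535 for NCD38-b2P4 and -0.558 for NCD38-b2PIPP. With the GC trend subtracted the medians were -0.60 and -0.53. PLK1, the polo-like kinase that drives entry into and passage through mitosis (chr16:23690210-23701688 on hg19), was at 4.33 FPKM with DMSO, 15.8 with NCD38, 5.83 with NCD38-b2P4 and 5.22 with NCD38-b2PIPP. Its ratios were -1.31 and -1.36, with half-widths of 0.22 and 0.18.

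CDC20, the activator of the anaphase-promoting complex (chr1:43824652-43828874 on hg19), was at 37.1 FPKM with DMSO, 82.0 with NCD38, 34.3 with NCD38-b2P4 and 38.6 with NCD38-b2PIPP. UBE2S, an E2 enzyme of the same complex, was at 83.8, 162, 91.5 and 87.8 FPKM. BIRC5, the chromosomal passenger protein survivin, was at 9.65, 20.0, 9.23 and 11.7 FPKM. AURKA, a mitotic kinase, was at 17.0, 39.1, 19.0 and 21.2 FPKM. For these genes NCD38 was the highest of the 4 libraries, and both conjugates lay nearer to DMSO than to NCD38. DLGAP5, a spindle protein, was at 1.23 FPKM with DMSO, 4.08 with NCD38, 2.00 with NCD38-b2P4 and 1.75 with NCD38-b2PIPP. The members above 0 were SPC25 for both conjugates, at 0.36 and 0.34, and NUSAP1 for NCD38-b2P4, at 0.15.

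Genes of DNA replication lay on the other side. Of the 48 members of the S phase list, all expressed, 42 were above 0 with both conjugates on day 30 and 3 below. The share above was 87.5%, against 36.4% of all expressed entries, and the medians were 0.40 and 0.22. No member was past 2-fold on that day. DTL, the substrate receptor that marks CDT1 for destruction during replication, was at 6.66 FPKM with NCD38, 13.2 with NCD38-b2P4 and 12.5 with NCD38-b2PIPP, beside 8.94 with DMSO. CDC6, which loads the MCM helicase at origins, was at 11.9, 21.7 and 17.0 FPKM beside 17.2 with DMSO. With the GC trend subtracted the day 30 medians of the list were 0.36 and 0.26.

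On day 4 the medians of both lists lay near 0 once the GC trend was subtracted. The G2/M medians were 0.342 and 0.489 on day 4, opposite in sign to day 30, and with the GC trend subtracted they were -0.09 and 0.03. The S phase medians were 0.38 and 0.40, and -0.01 and 0.05 with the trend subtracted. PLK1 and CDC20 lay below NCD38 on day 4, PLK1 at ratios of -0.68 and -1.01 and CDC20 at -0.80 and -1.16, and with the trend subtracted at -0.32 and -0.44 and at -0.43 and -0.61. How many cells stood in each phase was not measured here.

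**Figure D3:**
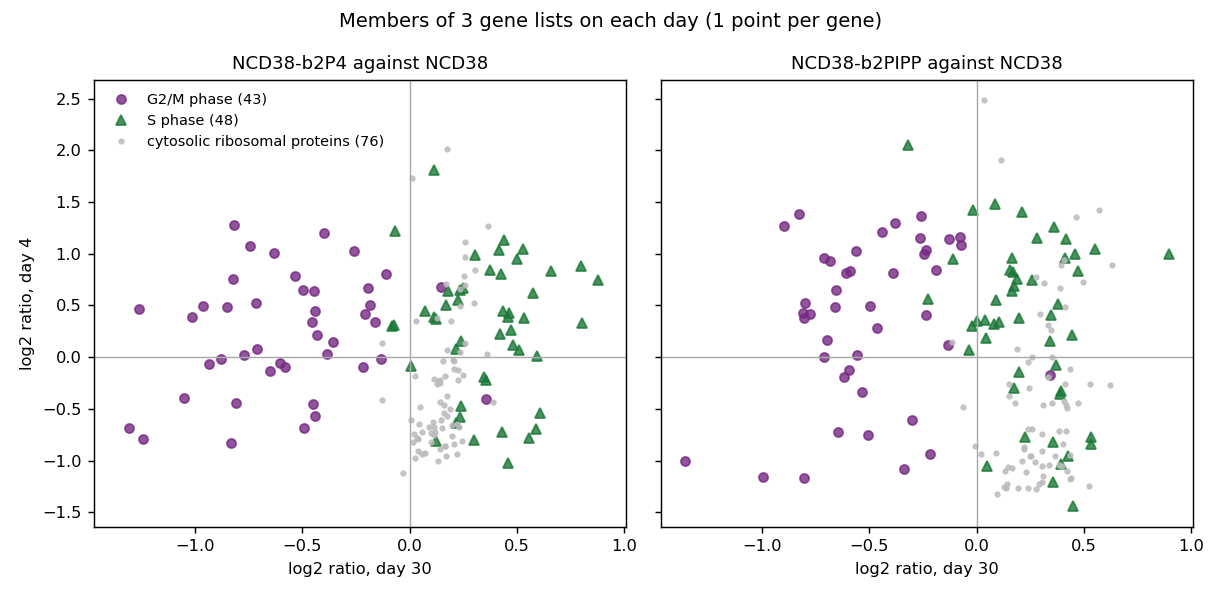
Log2 ratio to NCD38 on day 30 (x axis) and on day 4 (y axis) for the members of the G2/M, S phase and ribosomal protein lists, 1 point per gene, with NCD38-b2P4 on the left and NCD38-b2PIPP on the right. On the x axis 41 of 43 G2/M genes lie below 0 and 42 of 48 S phase genes above 0 with both conjugates, whereas on the y axis both lists lie on both sides of 0.

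Genes of the cytoskeleton and of the serum and YAP responses were also higher with NCD38 than with the conjugates on day 30. FLNA, the actin cross-linker filamin A, was at 40.7 FPKM with DMSO, 79.2 with NCD38, 37.2 with NCD38-b2P4 and 32.4 with NCD38-b2PIPP. Ratios of FLNA on day 4 were -0.50 and -0.66, and 0.07 and 0.17 with the GC trend subtracted. CTGF, a secreted matricellular protein and YAP target, was at 0.444, 2.47, 0.522 and 0.568 FPKM. CTGF passed the filter on expression only through its value with NCD38 on day 30, the library where it was highest. ACTB, the cytoplasmic actin, was at 606, 1160, 687 and 467 FPKM. Of 30 expressed genes in an actin cytoskeleton list that was put together after the values were seen, 25 were below 0 with both conjugates on day 30 and 2 above. The share below was 83.3%, against 36.4% of all expressed entries, and the medians were -0.37 and -0.58. Since these values were seen before the list was made, the share describes its members and tests nothing.

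Of the 18 expressed YAP targets, 16 were below 0 with both conjugates on day 30 (88.9%, against 36.4% of all expressed entries), with medians of -0.225 and -0.364. Of the 29 expressed immediate early genes, 23 were below 0 with both (79.3%, against the same 36.4%) and 2 above, with medians of -0.43 and -0.31. EGR1, a zinc finger factor induced within minutes by growth signals, was at 18.8 FPKM with DMSO, 40.8 with NCD38, 23.1 with NCD38-b2P4 and 18.9 with NCD38-b2PIPP. CYR61 and CTGF belong to both lists. On day 4 the YAP medians were 0.544 and 0.715, and with the GC trend subtracted 0.45 and 0.63, whereas CTGF itself was at 0.261 FPKM with NCD38 and at 1.19 and 1.57 with the conjugates. P2RY11, a purinergic receptor whose locus also gives a readthrough transcript with PPAN, completed the long entries lowest with both conjugates on day 30, at ratios of -1.52 and -1.18.

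Long entries on the same side of NCD38 in all 4 comparisons numbered 1505 above (15.3% of 9836) and 1552 below (15.8%). Entries on opposite sides of NCD38 on the 2 days were more numerous. Over all expressed entries, 14.4% were above 0 and 15.9% below in all 4 comparisons, against 18.8% above on day 30 and below on day 4 and 18.3% the other way. Across the 10865 entries, which are not independent replicates, Spearman's rho between the day 30 and the day 4 ratios was 0.0 for NCD38-b2P4 and -0.27 for NCD38-b2PIPP, and with the GC trend subtracted -0.18 and -0.28 across 10205. Those with the largest smallest ratio above 0 were SIAE, IVNS1ABP, DTL, HIBADH, MORC4, OGT, CSRP2 and TSPAN6, and those below 0 were LGALS1, UBE2S, CDC20, SERTAD1, ATG4D, PLK1, TGFB1 and DAPK3. OGT, the enzyme that attaches N-acetylglucosamine to nuclear and cytoplasmic proteins, was at 19.3 FPKM with NCD38, 30.8 with NCD38-b2P4 and 31.9 with NCD38-b2PIPP on day 30, and at 4.97, 12.8 and 16.0 FPKM on day 4. The mean of both conjugates over both days was 0.78 above NCD38 (limma, SE 0.155, 95% interval 0.40 to 1.16, adjusted p = 0.468). SERPINB1, an inhibitor of neutrophil proteases, was at 16.6, 28.8 and 21.4 FPKM on day 30 and at 10.0, 20.3 and 23.0 FPKM on day 4, where its ratios of 0.65 and 0.68 became 0.07 and -0.10 with the GC trend subtracted. IVNS1ABP, a kelch protein that binds the influenza NS1 protein, was at 7.50, 20.2 and 15.5 FPKM on day 30 and at 1.59, 4.44 and 5.95 FPKM on day 4.

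LGALS1, the β-galactoside-binding lectin galectin-1, was at 2330, 1182 and 1243 FPKM with NCD38, NCD38-b2P4 and NCD38-b2PIPP on day 30, and at 4802, 3120 and 2716 FPKM on day 4. Its mean difference was -1.07 (limma, SE 0.222, 95% interval -1.61 to -0.52, adjusted p = 0.468). CDC20 had a mean difference of -1.11 (limma, SE 0.191, 95% interval -1.58 to -0.64, adjusted p = 0.468). TGFB1, the growth factor of the transforming growth factor β family, was at 41.1, 25.7 and 22.9 FPKM on day 30 and at 148, 113 and 98.6 FPKM on day 4. None of the 16 genes passed the adjusted threshold. They were picked by the size of the same ratios that enter the fit. The intervals given for OGT, LGALS1 and CDC20 are not adjusted for that choice, which pushes them away from 0. With the GC trend subtracted the day 4 ratios of these genes moved toward 0, for SIAE from 0.85 and 0.88 to 0.27 and 0.04 and for TGFB1 from -0.70 and -1.04 to -0.08 and -0.14, and those of DAPK3 became 0.01 and 0.06.

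Single genes stood far from NCD38 on day 4 with little difference on day 30. TMEM66, now named SARAF, a regulator of store-operated calcium entry, was at 4.41 FPKM with NCD38, 26.5 with NCD38-b2P4 and 34.0 with NCD38-b2PIPP, and at 12.5 with DMSO. ATP6V1D, a subunit of the vacuolar proton pump, was at 2.88, 16.8 and 24.7 FPKM, beside 8.57 with DMSO. RPL7, a protein of the large ribosomal subunit with many pseudogene copies, was at 192, 957 and 1474 FPKM, beside 504 with DMSO. With the GC trend subtracted their ratios were 1.47 and 1.48, 1.31 and 1.44, and 1.46 and 1.64, and on day 30 the ratios of TMEM66 were -0.15 and 0.04. RRM1, the large subunit of ribonucleotide reductase, was at 7.34 FPKM with NCD38 on day 4, 35.1 with NCD38-b2P4 and 46.4 with NCD38-b2PIPP.

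Several of the largest day 4 differences fell on entries that overlap another gene. MUTED-TXNDC5, TMEM189-UBE2V1 and NME1-NME2 are readthrough transcripts, and BSCL2 shares its locus with one. BSCL2, the lipid droplet protein seipin, was at 11.5 FPKM with NCD38 on day 4, at 1.01 and 1.06 with the conjugates and at 0.755 with DMSO, but on day 30 at 6.32, 5.67 and 14.1 FPKM. How the reads of such loci were divided between entries is uncertain. HSD17B8, a hydroxysteroid dehydrogenase of mitochondrial fatty acid synthesis, was at 5.78 FPKM with NCD38 on day 4 and at 2.50 and 2.09 with the conjugates. Its ratios of -1.26 and -1.59 became -0.765 and -0.884 with the GC trend subtracted.

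Some gene lists differed more on day 4 than on day 30. SR proteins and hnRNPs, which bind pre-mRNA and govern splicing, were above 0 with both conjugates for 27 of 31 members on day 4 (87.1%, against 46.0% of all expressed entries), with medians of 0.76 and 0.88, and of 0.23 and 0.27 with the GC trend subtracted. On day 30 their medians were -0.05 and -0.18. HNRNPR was at 6.12 FPKM with NCD38 on day 4, 24.2 with NCD38-b2P4 and 40.2 with NCD38-b2PIPP. Cytosolic ribosomal proteins were above 0 with both conjugates for 72 of 76 members on day 30 (94.7%, against 36.4% of all expressed entries), at medians of 0.16 and 0.30. They were below 0 with both for 56 of 76 on day 4 (73.7%, against 46.0% of all expressed entries), at medians of -0.45 and -0.70. With quantile normalization the ribosomal median for NCD38-b2PIPP on day 4 was 0.124, on the other side of 0. Nuclear-encoded subunits of the respiratory chain had day 4 medians of -0.41 and -0.62 over 69 members and day 30 medians of 0.06 and 0.12. The chaperone HSP90AA1 was at 15.5 FPKM with NCD38 on day 4, 60.5 with NCD38-b2P4 and 136 with NCD38-b2PIPP, in a heat shock and unfolded protein response list with day 4 medians of 0.45 and 0.48 that became 0.15 and 0.21 with the trend subtracted.

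**Figure D4:**
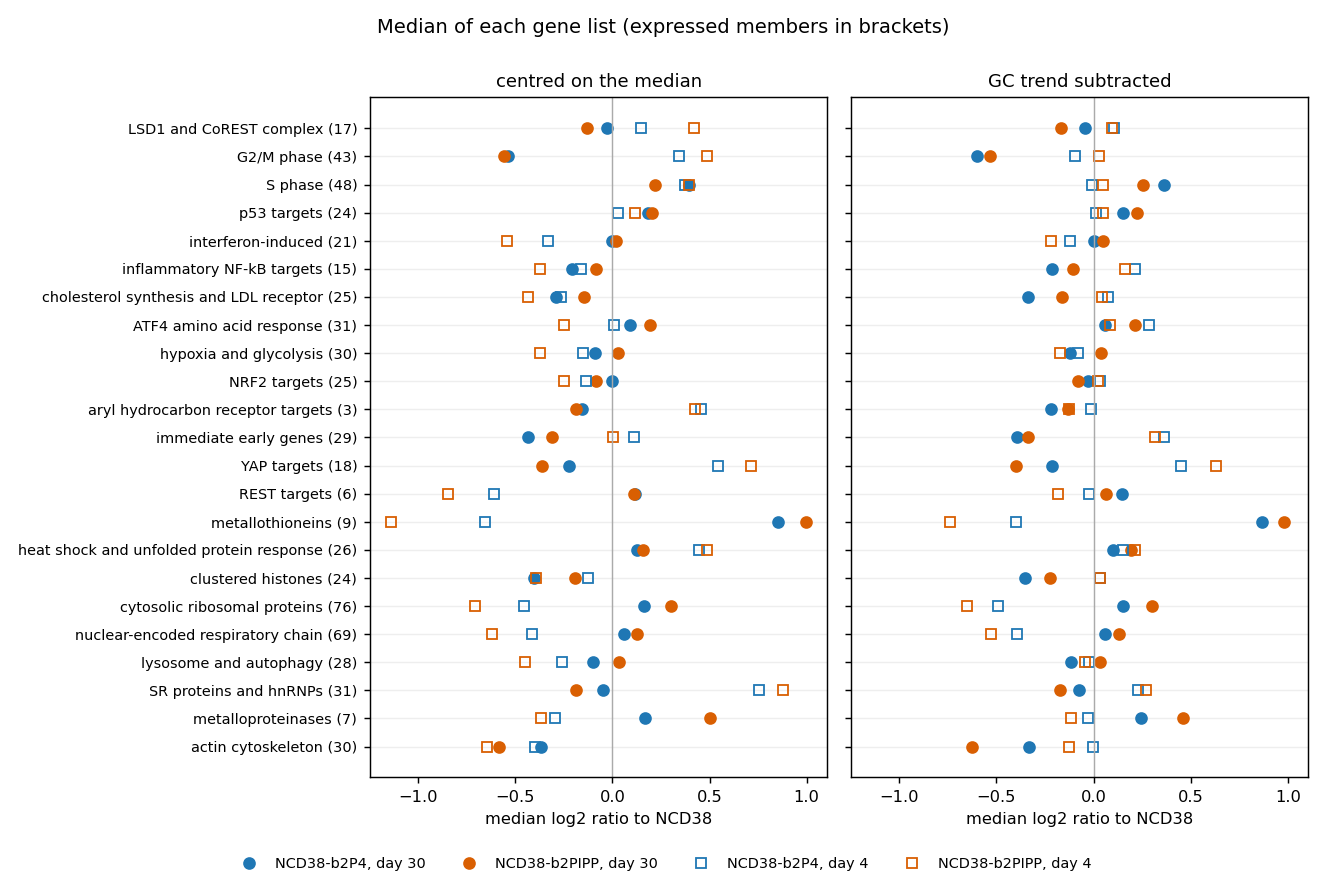
Median log2 ratio to NCD38 (x axis) of 23 gene lists (y axis, expressed members in brackets), filled circles for day 30 and open squares for day 4, blue for NCD38-b2P4 and orange for NCD38-b2PIPP, centred on the median (left) or with the GC trend subtracted (right). Metallothioneins, YAP targets and G2/M genes are among the lists with opposite signs on the 2 days in the left panel, and the G2/M medians of day 4 lie near 0 in the right one.

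The level of the compounds' target is given here. KDM1A was at 42.0, 46.1, 45.6 and 39.4 FPKM with DMSO, NCD38, NCD38-b2P4 and NCD38-b2PIPP on day 30, and at 56.6, 38.0, 69.8 and 72.1 FPKM on day 4. Its mean difference was 0.15 (limma, SE 0.184, 95% interval -0.31 to 0.60, adjusted p = 0.668). Over the 17 expressed members of the LSD1 and CoREST list the median ratios were -0.03 and -0.13 on day 30, and 0.15 and 0.42 on day 4, or 0.10 and 0.09 with the GC trend subtracted. RCOR1, the CoREST scaffold, was at 1.73 FPKM with NCD38 on day 4, 6.46 with NCD38-b2P4 and 9.52 with NCD38-b2PIPP, beside 4.31 with DMSO. The RCOR1 ratios of 1.14 and 1.49 became 0.57 and 0.81 with the GC trend subtracted, no longer past 2-fold. GFI1B, a repressor that recruits LSD1 in blood cells, was listed at 0 in all 8 libraries. Of 35 REST targets, neuronal genes that REST and CoREST hold silent, 6 were expressed, with medians of 0.12 and 0.11 on day 30 and of -0.61 and -0.85 on day 4, or -0.03 and -0.18 with the trend subtracted.

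Of the 24 expressed p53 targets 18 were above 0 with both conjugates on day 30, with medians of 0.18 and 0.20, and FDXR, ferredoxin reductase, was at 7.29 FPKM with NCD38, 13.4 with NCD38-b2P4 and 13.2 with NCD38-b2PIPP. Cholesterol synthesis genes had day 30 medians of -0.29 and -0.15 and day 4 medians of -0.26 and -0.43, and the latter were 0.08 and 0.05 with the GC trend subtracted. Clustered histone genes had medians of -0.40 and -0.19 on day 30 and of -0.12 and -0.39 on day 4, or 0.03 and 0.03 on day 4 with the trend subtracted, in a library type that selects polyadenylated RNA, which most of their transcripts lack. Inflammatory NF-kB targets had day 30 medians of -0.21 and -0.08, aryl hydrocarbon receptor targets, of which 3 were expressed, -0.16 and -0.19, and NRF2 targets 0.00 and -0.08. Interferon-induced genes, hypoxia and glycolysis genes and lysosome and autophagy genes had day 30 medians between -0.10 and 0.03. On day 4 the medians were -0.16 and -0.37 for NF-kB targets, and 0.46 and 0.43 for aryl hydrocarbon receptor targets. NRF2 targets were at -0.13 and -0.25, and interferon-induced genes at -0.33 and -0.54. Hypoxia and glycolysis genes were at -0.15 and -0.37, and lysosome and autophagy genes at -0.26 and -0.45. With the GC trend subtracted, all of these day 4 medians lay between -0.22 and 0.21.

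Among short entries, the small nucleolar RNAs SNORD104 and SNORD99 had the largest differences of one direction in all 4 comparisons. SNORD104 was listed at 0 with NCD38 on day 30 and at 141 and 382 FPKM with NCD38-b2P4 and NCD38-b2PIPP, and at 120, 373 and 786 FPKM on day 4. SNORD99 was at 52.2 and 120 FPKM with NCD38 on day 30 and day 4 and listed at 0 in all 4 conjugate libraries. With DMSO, SNORD99 was listed at 0 on day 30 and at 90.7 FPKM on day 4, and SNORD104 at 144 and 725 FPKM. Such entries are under 500 nt, and FPKM divides few fragments by a very short length.

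The conjugates themselves, which differ by 1 imidazole in place of a pyrrole, were told apart by limma for the same 3 hairpins, MIR1909, MIR659 and MIR196B, and for no other entry (smallest adjusted p = 0.00503). On day 30 MMP3 was the metalloproteinase with the widest gap between them, at 4.67 FPKM with NCD38-b2P4 and 9.62 with NCD38-b2PIPP, values of 1 library each. Over both days the limma difference of NCD38-b2PIPP minus NCD38-b2P4 was 0.36 for MMP3 with a 95% interval of -1.17 to 1.88, and 0.13 for MMP1 with an interval of -1.14 to 1.40. For PLK1 it was -0.20 with an interval of -0.81 to 0.42, and for KDM1A -0.12 with an interval of -0.65 to 0.40. Each of these intervals takes in differences in both directions, so they do not show that the conjugates act alike.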

How the data were processed

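RNA-seq of RKO cells was analysed in 8 libraries, 1 per treatment and day. The authors aligned stranded, polyadenylated-RNA reads (TopHat and Cufflinks in the methods, HISAT2 2.2.1.0 and Cufflinks in the submitters' processing notes, hg19) and deposited FPKM per gene name; the annotation is not given in the sources used here. The label dose of 2 μM was used for day 4, where the methods print 2 mM. ChIP-seq samples were not analysed here. Names occurring more than once (90 rows) were dropped, and 10865 entries with a mean FPKM of at least 1 were kept. Ratios were log2(FPKM + 1), conjugate minus NCD38 of the same day, centred on the median. Transcript length and GC content came from GENCODE release 44 lifted to hg19, matched for 93.9% of entries, and the GC trend was a running median over 501 genes. Over the 8 libraries, limma 3.58.1 (R 4.3.3) fitted log2(FPKM + 1) on treatment and day, with eBayes and trend, after shifting each library by its median deviation from the gene means. Benjamini-Hochberg adjustment ran over genes and both pairs, or over genes for the mean of both conjugates, with 3 residual degrees of freedom. Depth was estimated from the pile-up of single fragments. The steps were tested on simulated data.

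Named genes were the 8 long entries of each direction with the largest smallest ratio of one sign in all 4 comparisons, the 4 per day and direction shared by both conjugates, 3 per direction opposite on the 2 days, 3 short entries per direction, the 5 smallest limma p-values per direction, up to 4 per gene list by mean ratio, KDM1A, DLGAP5 and SERPINB1. Other genes were named after their values were seen, and a few that the rule selects are not reported here. The compounds compared and the 21 gene lists were chosen with earlier results of these data known, and 2 more lists (metalloproteinases, actin cytoskeleton) after the values were seen. Alternatives changed the pseudocount, centring, filter, fold, GC and length trends and the libraries fitted.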

Additional observations from a re-analysis of the deposited data

Results flagged for a closer look

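3 gene lists, those with all 4 medians at least 0.2 from 0, and 5 genes lay on one side of NCD38 with both conjugates on day 30 and on the other side with both on day 4. The difference between the days was not tested, since each value is a ratio of 2 single libraries, and the ratios of both conjugates on a day share the NCD38 library. G2/M genes had median ratios of -0.535 (NCD38-b2P4) and -0.558 (NCD38-b2PIPP) on day 30 and of 0.342 and 0.489 on day 4. YAP targets had median ratios of -0.225 (NCD38-b2P4) and -0.364 (NCD38-b2PIPP) on day 30 and of 0.544 and 0.715 on day 4. Metallothionein list members had median ratios of 0.854 (NCD38-b2P4) and 0.999 (NCD38-b2PIPP) on day 30 and of -0.653 and -1.14 on day 4. With the GC trend subtracted, the day 4 medians were -0.09 and 0.03 for G2/M genes, 0.45 and 0.63 for YAP targets and -0.40 and -0.74 for metallothioneins. UCP2, a mitochondrial carrier, had ratios of 1.647 and 1.374 on day 30 and of -1.031 and -1.318 on day 4. C6orf108, now named DNPH1, a nucleotide hydrolase, had ratios of 1.203 and 1.353 on day 30 and of -1.107 and -1.354 on day 4. SFPQ, a splicing and paraspeckle protein, had ratios of -1.018 and -1.214 on day 30 and of 1.43 and 1.427 on day 4. LIMA1, an actin-binding LIM protein, had ratios of -0.91 and -1.038 on day 30 and of 1.16 and 1.47 on day 4. The small nucleolar RNA SNORA59B had ratios of -2.56 and -1.001 on day 30 and of 1.891 and 2.45 on day 4. After GC subtraction, the day 4 ratios were -0.67 and -0.77 for UCP2, -0.51 and -0.49 for C6orf108 and 0.52 and 0.58 for LIMA1, no longer past 2-fold, and 1.13 and 1.16 for SFPQ and 1.72 and 2.00 for SNORA59B. SFPQ was at 126 FPKM with NCD38 on day 30, 62.5 with NCD38-b2P4 and 51.2 with NCD38-b2PIPP, and at 28.9, 98.5 and 109 FPKM on day 4, beside 61.4 and 68.4 with DMSO. SNORA59B was listed at 0 with DMSO and with NCD38-b2P4 on day 30 and with DMSO and with NCD38 on day 4, and no fold is read from it.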

How the results depend on the processing

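The labels give no replicate numbers, so no replicate block could be fitted, and the day was the block instead. The counts at 2-fold depended on scale and filter, and the cause was not tested beyond what each alternative changes. Here P4 and PIPP stand for the conjugates against NCD38, and higher and lower counts are given where they moved by more than 1.5 times. With a pseudocount of 0.1, counts were P4 day 30 174 higher and 187 lower, PIPP day 30 259 higher and 134 lower, P4 day 4 1880 higher and 624 lower, PIPP day 4 3036 higher and 1913 lower, both day 30 112 higher and 68 lower, both day 4 1802 higher and 549 lower, both days 2 higher. With a pseudocount of 0.01, counts were P4 day 30 199 higher and 202 lower, PIPP day 30 284 higher and 153 lower, P4 day 4 2177 higher and 714 lower, PIPP day 4 3233 higher and 2006 lower, both day 30 135 higher and 70 lower, both day 4 2097 higher and 627 lower, both days 7 higher. Without centring, counts were P4 day 4 1857 higher and 67 lower, PIPP day 4 3335 higher and 119 lower, both day 4 1808 higher and 44 lower, both days 2 higher. With quantile normalization, counts were P4 day 4 342 higher, PIPP day 4 750 higher and 551 lower, both day 4 308 higher, both days 2 higher. With the GC trend subtracted, counts were P4 day 4 190 higher and 121 lower, PIPP day 4 456 higher and 322 lower, both day 4 157 higher and 101 lower, both days 2 higher. With the length trend subtracted, counts were P4 day 4 111 lower, PIPP day 4 538 lower, both day 4 90 lower, both days 2 higher. At a 1.5-fold threshold, counts were P4 day 30 431 higher and 406 lower, PIPP day 30 599 higher and 336 lower, P4 day 4 2381 higher and 1872 lower, PIPP day 4 3183 higher and 2961 lower, both day 30 271 higher and 149 lower, both day 4 2250 higher and 1799 lower, both days 12 higher and 23 lower. At a mean FPKM of at least 5, counts were P4 day 30 73 lower, P4 day 4 66 lower, PIPP day 4 235 lower, both day 4 35 lower, both days 3 lower. With no filter, counts were P4 day 4 1598 higher and 81 lower, PIPP day 4 3028 higher and 164 lower, both day 4 1543 higher and 50 lower. At an FPKM of at least 1 in each of the 6 compound libraries, counts were P4 day 30 46 higher and 32 lower, PIPP day 30 60 higher and 24 lower, P4 day 4 51 lower, PIPP day 4 268 lower, both day 30 34 higher and 9 lower, both day 4 27 lower, both days 0 higher and 1 lower. With long entries only, each comparison centred on their own median, which is why 27 and 7 shared entries differ from the 29 and 8 long entries counted after centring on all entries, counts were P4 day 30 41 higher and 27 lower, PIPP day 30 57 higher and 24 lower, both day 30 27 higher and 7 lower, both days 0 higher and 0 lower. Of 21 lists, 7 had a median of one sign in all 4 comparisons, and 4 did without centring or with the GC trend subtracted. limma called 0 entries for both pairs among the 6 libraries without DMSO, without the day block, at an FPKM of at least 1 in each of the 8 libraries or with long entries only, and with the GC trend subtracted MIR196B was no longer called (0 lower for PIPP). At a pseudocount of 0.1 it called 1 lower entry for P4 and 2 higher entries for the mean of both conjugates. Leaving out 1 library at a time gave, for P4, 0 to 11 higher and 0 to 7 lower calls, for PIPP 0 to 22 and 0 to 8, and for the mean of both conjugates 0 to 439 and 0 to 1252, the most for the last without NCD38 of day 30; a condition left with 1 library is assumed to vary like the others. Among list medians at least 0.5 from 0, 5 changed sign. Smaller medians that changed sign are not in this count. On day 4 those of inflammatory NF-kB targets, for example, went from -0.16 and -0.37 to 0.21 and 0.16 with the GC trend subtracted. The ribosomal protein median for PIPP on day 4 was 0.12 with quantile normalization. The metallothionein medians with long entries only, where the short metallothionein genes drop out by construction, were -0.0903 and -0.18 on day 30 and 0.49 and 0.63 on day 4. Of 5044 recomputed ratios of named genes 118 changed sign, 46 of them with the GC trend subtracted, and none of the 118 was past 2-fold before. Among them on day 4 with the GC trend subtracted were MMP1 (0.41 and 0.66 to -0.17 and -0.12), DAPK3 (-0.64 and -0.85 to 0.01 and 0.06), FLNA (-0.50 and -0.66 to 0.07 and 0.17) and SERPINB1 for PIPP (0.68 to -0.10). With 1 library per condition, about 12600000 to 23100000 estimated fragments each, counting error is small for abundant genes, and the spread between cultures is not measured.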
